A study of Mus musculus with 3 samples.

Results

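The 10 genes described here belong to the blood-nerve barrier and were followed through the cells of the mouse dorsal root ganglion (DRG): the tight junction genes Cldn5, Cldn1, Ocln and Tjp1, the transporter genes Slc2a1, Mfsd2a, Slco1a4, Abcb1a and Abcg2, and Plvap, a gene of the fenestral and caveolar diaphragm. The members were fixed by gene symbol, so they are 10 of the 31053 genes in the count matrices. The cells came from 3 libraries of L3 and L4 ganglia of 13 week old male C57BL/6J mice, each a pool of 2 mice and 8 ganglia: 1 library from untreated (naïve) mice, 1 library 7 days and 1 library 14 days after spared nerve injury (SNI) on both sides. In SNI, branches of the sciatic nerve are cut while another is left intact. Every mouse was wild type and was perfused before dissection, and the ganglia were dissociated with collagenase and dispase. Because each condition was measured in 1 library, no difference between conditions could be tested, and a change after injury cannot be told apart from a difference between the libraries.

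The endothelium of peripheral nerve and ganglion is sealed to different degrees along the vessels. Tight junctions are built from claudins and occludin, held to the cytoskeleton by scaffold proteins such as ZO-1, and they close the path between cells. Carriers such as GLUT1 bring nutrients across the cells, and ABC pumps return lipophilic substances to the blood. A second barrier is the perineurium, whose cells form their own tight junctions. PLVAP forms the diaphragms of fenestrae and caveolae and is known as a marker of leaky endothelium, whereas MFSD2A is known in brain as a lipid carrier that restrains vesicle transport across the endothelium.

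The 3 libraries held 11937 barcodes, of which 9662 had 500 or more detected genes with no more than 20% of UMIs from mitochondria (unique molecular identifiers, which count captured RNA molecules). After 90 doublets (0.931%) were left out, 9572 cells remained, with a median of 3059, 3972 and 4174 UMIs per cell in the naïve, day 7 and day 14 libraries. Between pairs of libraries, 1, 6 and 2 barcodes were shared. A gate on marker genes, none of them among the 10, placed 7396 cells in 12 classes and left 2176 cells (22.7%) unassigned. The endothelial class held 292, 206 and 328 cells in the naïve, day 7 and day 14 libraries, with a median of 3925, 4950.5 and 5834 UMIs. Among them, 119, 70 and 100 cells were gated as capillary, 62, 54 and 81 as arterial, 42, 27 and 47 as venous, and 69, 55 and 100 as none of these. Levels are given as CPM, the UMIs of a gene scaled to 1e6 of all UMIs of a class in a library, with exact 95% Poisson intervals that cover counting error only.

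To show the DNA in front of genes that share the endothelium but differ within it, 200 bases upstream of the RefSeq start are given for Cldn5, which was high in every endothelial class, for Slc2a1, which was highest in arterial cells, and for Abcb1a, for which no difference between them was called (RefSeq sequence, build GRCm38.p6, 5′ to 3′). Capitals mark matches to the TCF/LEF motif, the site read by the transcription factors of canonical Wnt signalling, which is known to maintain barrier endothelium in brain.
Cldn5, chr16:18776597-18776796, plus strand: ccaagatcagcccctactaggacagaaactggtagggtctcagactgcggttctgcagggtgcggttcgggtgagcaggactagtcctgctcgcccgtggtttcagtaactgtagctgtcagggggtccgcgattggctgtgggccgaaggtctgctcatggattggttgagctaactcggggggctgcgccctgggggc
Slc2a1, chr4:119108495-119108694, plus strand: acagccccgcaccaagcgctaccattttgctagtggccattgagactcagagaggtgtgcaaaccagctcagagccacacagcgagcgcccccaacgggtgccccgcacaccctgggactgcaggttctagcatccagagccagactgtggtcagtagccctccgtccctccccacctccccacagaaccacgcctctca
Abcb1a, chr5:8566841-8567040, plus strand: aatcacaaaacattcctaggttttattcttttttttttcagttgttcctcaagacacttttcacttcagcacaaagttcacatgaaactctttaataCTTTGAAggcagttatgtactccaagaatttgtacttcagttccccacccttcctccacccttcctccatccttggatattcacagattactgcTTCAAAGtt
The motif was searched on both strands in 4 spellings: CTTTGAA for the matches shown here, then CTTTGAT, further CTTTGTA, and finally CTTTGTT. Of 12 such windows, which covered 9 of the 10 genes, 1 held the motif, that of Abcb1a with 2 matches. Over all 32851 windows of the same length, 12.4% held it. The GC box GGGCGG, searched likewise, stood in 4 of the 12 windows and in 24.6% of all windows. RefSeq's start of Abcb1a lies far upstream of the gene body in the GENCODE annotation, which begins at base 8660077 of chromosome 5. A match is a description of the sequence and not a measured binding site.

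Of the 10 genes, 9 were higher in endothelial cells than in every other class with enough cells to be tested, in each library. Cldn1 was the exception and was almost absent from endothelium. The quasi-likelihood test of edgeR, applied to 27 sums of UMIs (9 classes by 3 libraries, with the library as a block), called 9 of the 10 genes higher in endothelium than in the mean of the other classes. The adjusted p of these 9 genes was at most 1.27e-11. Of all 12676 genes tested, 4058 (32.0%) were called higher in endothelium. Fitted fold changes of these 9 genes in this test are not given, since several classes held no UMI of a gene and the fit then rests on its prior count.

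**Figure D1:**
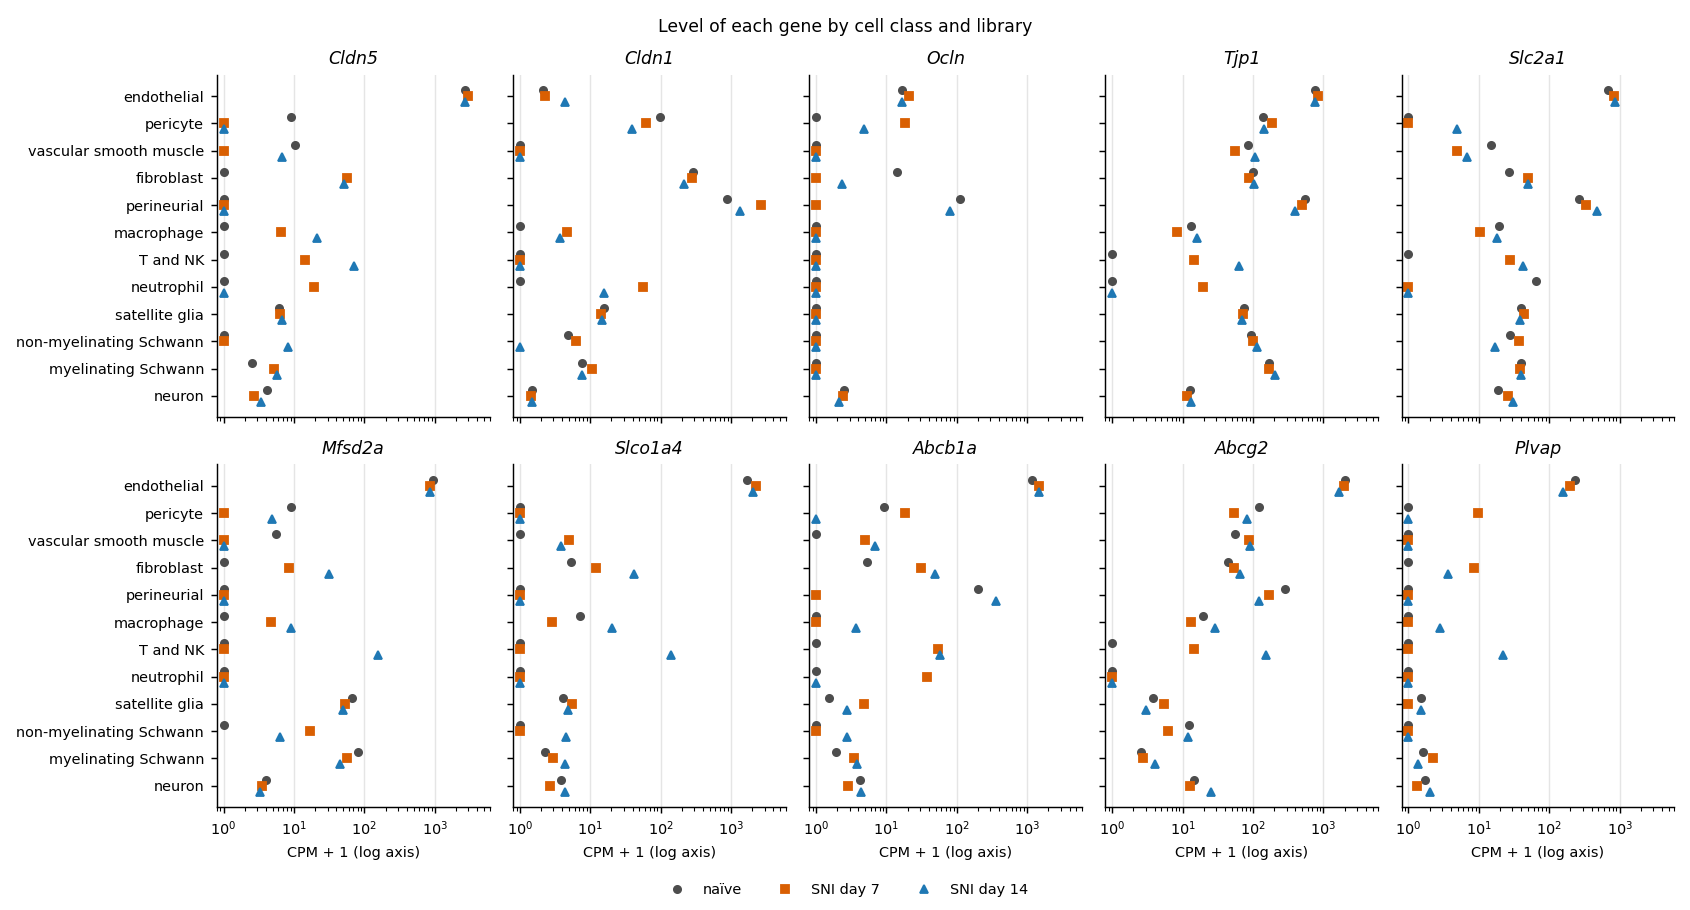
CPM + 1 on a log axis (x) in each of 12 cell classes (y) for the 10 genes, with 1 symbol per library (circle, naïve; square, SNI day 7; triangle, SNI day 14). In all 3 libraries 8 of the genes peak in the endothelial row, Cldn1 peaks in the perineurial row, which holds 13 cells, and Ocln stands higher in the perineurial than in the endothelial row in the naïve and day 14 libraries.

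Among the junction genes, Cldn5 carries the main claudin of endothelium. It lies on chromosome 16 (mm10, 18776847 to 18778262, plus strand). Its level in endothelial cells was 2717 CPM in the naïve library, 3003 CPM at day 7 and 2668 CPM at day 14. In fibroblasts, the class with the next highest mean, it was 0, 55.8 and 51.03 CPM, so the lowest endothelial library stood 47.9-fold above the highest fibroblast library. The fibroblast level came from few cells, with all 39 UMIs of day 14 in 4 of 158 cells. Endothelial cells held 96.9%, 97.9% and 96.9% of all Cldn5 UMIs in the 3 libraries.

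Tjp1, which encodes ZO-1 (chromosome 7, 65296165 to 65527781, minus strand), was broader. It stood at 749, 836 and 765 CPM in endothelium. Myelinating Schwann cells held 170, 166 and 205 CPM and pericytes 139, 185 and 144 CPM, and these classes overlapped. Endothelium held only 49.9%, 50.7% and 48.1% of all Tjp1 UMIs, the smallest share among the members other than Cldn1.

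Ocln, which encodes occludin (chromosome 13, 100496507 to 100552718, minus strand), was near the limit of detection. It had 27, 32 and 42 UMIs in endothelium, or 15.6, 20.3 and 15.5 CPM. Among the classes with enough cells for the test, pericytes came next and had 0, 17.6 and 3.88 CPM from 0, 2 and 1 UMIs, so the ranges of both classes overlapped. The 13 cells of the perineurial class stood above endothelium in the naïve and day 14 libraries, at 109 and 79.6 CPM from 5 and 2 UMIs. No Ocln UMI was found in myelinating Schwann cells, satellite glia, macrophages or vascular smooth muscle cells.

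Cldn1 (chromosome 16, 26356642 to 26371841, minus strand) encodes the claudin known from perineurial and epithelial barriers. Endothelium held 2, 2 and 9 UMIs, or 1.16, 1.27 and 3.32 CPM, and 8 of the 9 UMIs of day 14 came from 1 arterial cell. Fibroblasts held 284, 283 and 216 CPM, and 40.3%, 54.0% and 48.7% of them had a Cldn1 UMI. Pericytes followed with 98.2, 61.7 and 38.8 CPM, from only 12, 7 and 10 UMIs in 7, 4 and 9 cells. Satellite glia held 14.8, 13.2 and 13.9 CPM, and the fibroblast, pericyte and satellite glia levels did not overlap. In the test across classes the gene was not called, but the edgeR fit left the difference undetermined (log2 -1.13, SE 85.7). Vascular smooth muscle cells held no Cldn1 UMI in any library. The gene was called lower in endothelium by DESeq2 (log2 -1.70, adjusted p = 7.50e-04), and by edgeR with the stricter cell filter (-3.34) or with doublets kept (-1.35).

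Only 13 cells passed the perineurial gate (6, 2 and 5 per library), too few for a test. They held the highest Cldn1 level of any class, at 876, 2656 and 1353 CPM from 40, 16 and 34 UMIs, and 12 of the 13 had a UMI. They also held Tjp1 (547, 498 and 398 CPM), Slc2a1 (263, 332 and 477 CPM from 12, 2 and 12 UMIs), Abcg2 (285, 166 and 119 CPM from 13, 1 and 3 UMIs), Ocln (5, 0 and 2 UMIs) and, in the naïve and day 14 libraries, Abcb1a (9 and 9 UMIs). No UMI of Cldn5, Slco1a4, Mfsd2a or Plvap was found in them, which with 3 counts as the limit still allows up to 65.7, 498 and 119 CPM in the naïve, day 7 and day 14 libraries.

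The transporters were more selective for endothelium than Tjp1. Slco1a4, which encodes an organic anion carrier (chromosome 6, 141805440 to 141856199, minus strand), stood at 1674, 2280 and 2031 CPM, and 97.5%, 98.2% and 96.2% of its UMIs were endothelial. Abcb1a, which encodes the efflux pump P-glycoprotein (chromosome 5, 8660077 to 8748575, plus strand), stood at 1169, 1479 and 1492 CPM, with 97.3%, 97.3% and 96.0% of its UMIs in endothelium. Its close paralogue Abcb1b was at 10.99, 17.7 and 12.9 CPM in the same cells. How reads shared between both genes were treated is not given in the sources used here, so both levels are uncertain to that extent. Slco1a4 too belongs to a cluster of similar genes, with the same limit.

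Abcg2, which encodes the efflux pump BCRP (chromosome 6, 58584523 to 58695676, plus strand), was at 2045, 1989 and 1646 CPM in endothelium. It was also found in pericytes (123, 52.9 and 81.5 CPM) and vascular smooth muscle cells (77.5 CPM ± 19.3, SD over 3 libraries), whose ranges overlapped. Slc2a1, which encodes the glucose carrier GLUT1 (chromosome 4, 119108711 to 119137983, plus strand), was at 681, 833 and 872 CPM in endothelium. The other classes stayed at or below 48.4 CPM apart from the 13 perineurial cells and the small T and NK and neutrophil classes, and endothelium held 68.4%, 69.5% and 71.0% of its UMIs.

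Mfsd2a (chromosome 4, 122946850 to 122961188, minus strand) stood at 941, 843 and 853 CPM in endothelium. The classes next to endothelium were both glial. Myelinating Schwann cells held 81.2, 55.6 and 44.2 CPM and satellite glia 65.7, 52.9 and 47.9 CPM, with overlapping ranges. Non-myelinating Schwann cells held 0, 15.7 and 5.39 CPM from 0, 3 and 3 UMIs, and neurons 3.06, 2.48 and 2.29 CPM. In naïve myelinating Schwann cells there were 259 Mfsd2a UMIs beside 5 Cldn5 UMIs, whereas naïve endothelial cells held 1628 beside 4700, so the ratio of these genes differed between the classes.

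Plvap (chromosome 8, 71497765 to 71511752, minus strand, overlapping Gtpbp3 on the other strand) was, after Cldn1 and Ocln, the lowest of the 10 genes in endothelium, at 230, 196 and 156 CPM. Endothelium held 97.3%, 96.9% and 92.2% of its UMIs. Whether the counting used the strand is not given in the sources used here. It was not checked whether reads of Gtpbp3 entered the counts of Plvap. The same holds for the antisense genes Gm12867 and Gm12868 within Slc2a1. Genes of unknown status or pseudogenes also overlap Tjp1 and Abcb1a.

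Single endothelial cells carried many of the genes at once. The median endothelial cell had UMIs of 7 of the 10 genes in each library, and 77.4%, 83.5% and 84.1% of the cells had 6 or more. Among all other cells the median was 1 gene, and 0.212%, 0.164% and 0.288% had 6 or more. Abcg2 was found in 98.3%, 94.2% and 97.9% of endothelial cells, Cldn5 in 93.2%, 94.7% and 93.0%, and Plvap in 33.6%, 44.7% and 42.4%. In macrophages, which served as the background and had a median of 2152, 4424 and 3726 UMIs, these shares were 4.55%, 6.05% and 8.81% for Abcg2, 0%, 2.79% and 3.07% for Cldn5 and 0%, 0% and 0.766% for Plvap. After thinning to 2000 UMIs per cell, for which 59, 20 and 33 endothelial cells were too shallow, Plvap was found in 24.1%, 25.6% and 22.8%, and the higher unthinned shares of the injured libraries stood beside a greater depth.

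The genes whose pattern over the 27 sums was most like that of each member were named by the highest Pearson r of log2(CPM + 1) among 14898 genes, as a description. The points share libraries and depth. Cldn5 went with Flt1 (r = 0.95) and Mmrn2 (r = 0.94), Slco1a4 with Adgrl4 (0.97) and Cyyr1 (0.96), Plvap with Sox17 (0.97) and Gimap5 (0.96), Abcb1a with Plvap (0.94) and Nr5a2 (0.94), and Mfsd2a with Ceacam1 (0.89) and Sema3g (0.89). Flt1 was a marker of the endothelial gate and Sema3g one of the arterial gate. Slc2a1 went with Podxl (0.90) and Gstm7 (0.89), Abcg2 with Rere (0.93) and Meis2 (0.92), Tjp1 with Cdc42ep1 (0.93) and Nfib (0.90), Ocln with Col13a1 (0.89) and Gm53 (0.88). Cldn1, by contrast, went with Enpp2 (0.88) and Mrc2 (0.87).

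Along the vessels, the capillary cells were compared with the arterial and venous cells combined, to ask which barrier genes depend on the vessel segment. Of the 9 genes tested, 6 differed, 3 of them higher and 3 lower in capillary cells. Slc2a1, Ocln and Cldn5 were lower, Abcg2, Plvap and Mfsd2a were higher, the last 2 with calls that were lost under several alternatives, and Abcb1a, Slco1a4 and Tjp1 were not called. Of all 8033 genes tested in 6 sums with the library as a block, 815 (10.1%) were called, 377 higher and 438 lower. The median log2 difference was 0.04 over the 9 genes and 0.00 over all genes tested. Cldn1 had too few UMIs for the test.

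**Figure D2:**
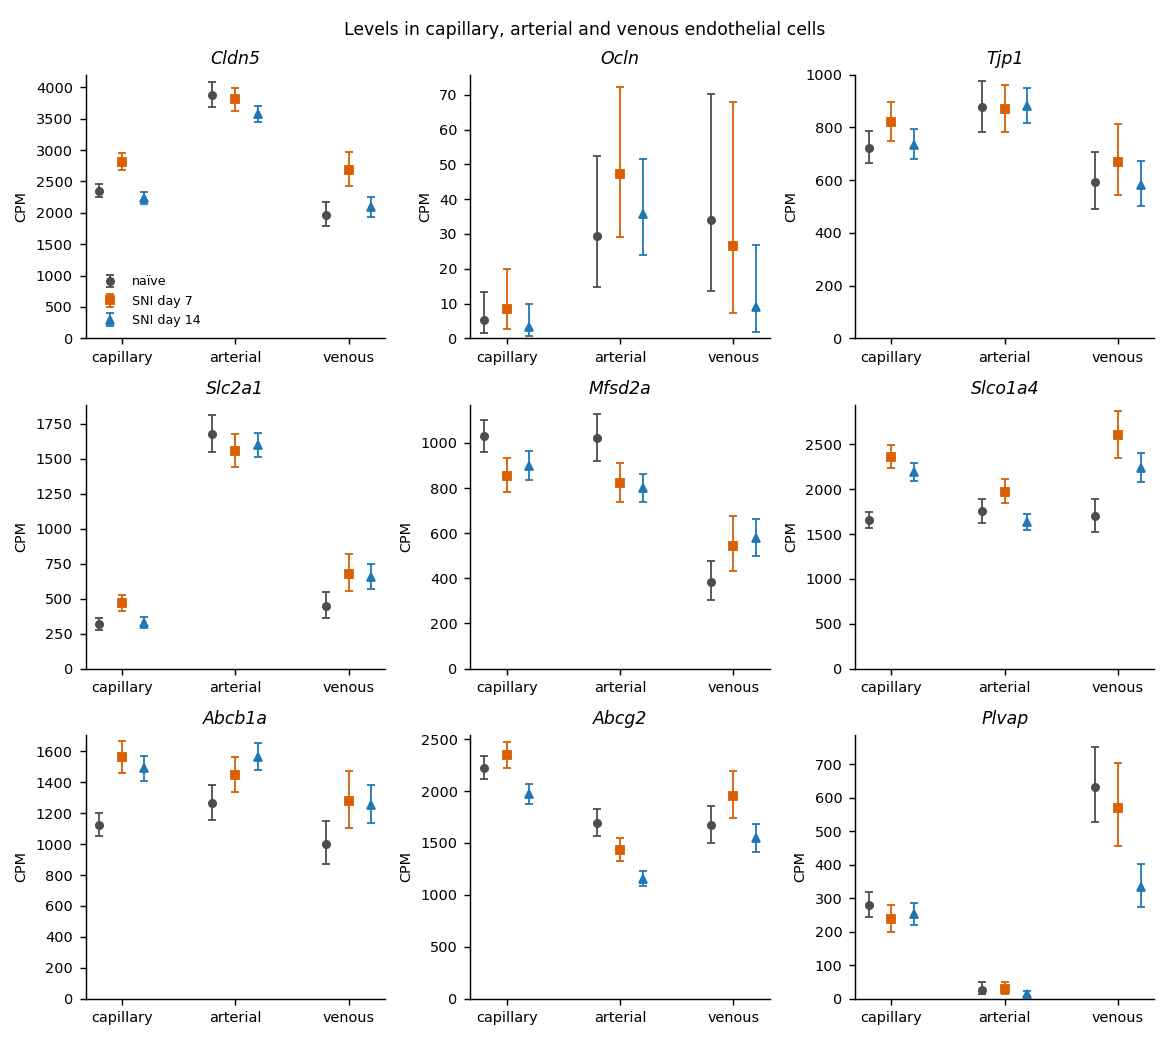
CPM (y, linear from 0) of 9 genes in capillary, arterial and venous endothelial cells (x), with 1 symbol per library and exact 95% Poisson intervals as bars. Slc2a1 stands between 1557 and 1673 CPM in arterial cells and at 676 CPM or lower elsewhere. Plvap stands between 13.6 and 29.3 CPM in arterial cells and at 237 CPM or more elsewhere.

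Slc2a1 had the smallest p of the 9. Its level was 1673, 1557 and 1597 CPM in arterial cells, 447, 676 and 653 CPM in venous cells, and 316, 466 and 326 CPM in capillary cells of the naïve, day 7 and day 14 libraries. The arterial libraries did not overlap with any other, and in each library the capillary level was the lowest. Against arterial and venous cells together the capillary level was lower by 1.83 on the log2 scale (SE 0.09, edgeR adjusted p = 3.95e-13). This is a fitted 3.56-fold difference. At 2000 UMIs per cell the gene was found in 89.8%, 84.6% and 88.0% of arterial cells and in 35.2%, 46.5% and 35.9% of capillary cells.

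Plvap was lowest where Slc2a1 was highest. In arterial cells it was at 26.6, 29.3 and 13.6 CPM, from 10, 13 and 11 UMIs. It was at 279, 237 and 251 CPM in capillary cells and at 632, 570 and 332 CPM in venous cells. The classes did not overlap. Its higher level in capillary than in pooled arterial and venous cells (log2 0.68, SE 0.14, edgeR adjusted p = 0.00104) therefore pooled opposite differences. Without the day 14 library the pooled difference was 0.36 on the log2 scale and was no longer called (adjusted p = 0.0992), nor was it in DESeq2 (0.0642) or without the block (0.118).

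Fitted separately, the capillary level of Plvap was above the arterial level by 3.58 on the log2 scale (SE 0.19, edgeR adjusted p = 1.85e-19) and below the venous level (log2 -0.96, SE 0.14, adjusted p = 2.88e-10). Of all genes, 1048 of 7999 (13.1%) were called between capillary and arterial cells and 485 of 6876 (7.05%) between capillary and venous cells. Among the members, 5 of 9 were called against arterial cells and 4 of 8 against venous cells. Both separate fits showed Slc2a1 lower (log2 -2.14 and -0.75) and Abcg2 higher in capillary cells (log2 0.63 and 0.31). The venous call of Abcg2 was lost without the naïve library (adjusted p = 0.279) or without the day 7 library (adjusted p = 0.113).

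Mfsd2a differed mainly between venous and other endothelium. Its level was 384, 543 and 576 CPM in venous cells, 1029, 855 and 899 CPM in capillary cells, and 1020, 821 and 798 CPM in arterial cells. The venous libraries did not overlap with the other classes, which overlapped with each other. Capillary cells stood above venous cells by 0.85 on the log2 scale (SE 0.12, edgeR adjusted p = 1.65e-10), whereas against arterial cells the difference was 0.09 (SE 0.09, adjusted p = 0.669). Against both together it was 0.29 (SE 0.08, adjusted p = 0.0135), a call that was lost without the naïve library (adjusted p = 0.237), in DESeq2 (0.176), without the block (0.201) and with the stricter cell filter (0.331).

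Of the junction genes, Cldn5 was at 3884, 3807 and 3571 CPM in arterial cells, above 2353, 2813 and 2232 CPM in capillary cells and 1973, 2690 and 2086 CPM in venous cells, and capillary and venous levels overlapped. The capillary level was lower than that of arterial and venous cells together (log2 -0.41, SE 0.07, edgeR adjusted p = 1.78e-04) and than that of arterial cells alone (log2 -0.61), while against venous cells the difference was 0.10 (SE 0.09, adjusted p = 0.663). Ocln had 4, 5 and 3 UMIs in capillary cells against 11, 21 and 29 in arterial cells, or 5.22, 8.48 and 3.38 CPM against 29.3, 47.3 and 35.8 CPM. The difference from arterial and venous cells together was -2.57 on the log2 scale (SE 0.37, adjusted p = 1.57e-05), from few molecules. Tjp1 was at 724, 821 and 735 CPM in capillary cells, 876, 869 and 881 CPM in arterial cells and 593, 669 and 583 CPM in venous cells, so that its lack of a pooled call (log2 -0.06, SE 0.08) came with 3 classes that did not overlap, although the capillary level was not called against arterial cells (adjusted p = 0.166) or venous cells (0.169) alone either.

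The efflux pumps split. Abcg2 was at 2224, 2344 and 1969 CPM in capillary cells against 1692, 1431 and 1155 CPM in arterial cells and 1671, 1954 and 1543 CPM in venous cells (capillary against both, log2 0.55, SE 0.07, edgeR adjusted p = 5.23e-06). The capillary libraries did not overlap with the others. Abcb1a was at 1125, 1562 and 1490 CPM in capillary cells, 1265, 1447 and 1565 CPM in arterial cells and 1001, 1279 and 1253 CPM in venous cells, with overlap throughout and a difference of 0.04 (SE 0.07). Slco1a4, with 1656, 2364 and 2190 CPM in capillary, 1753, 1973 and 1632 CPM in arterial and 1701, 2603 and 2239 CPM in venous cells, likewise overlapped (log2 0.13, SE 0.08).

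Arterial and venous cells were then compared directly, a comparison chosen after the values were seen. Of 6020 genes tested, 648 (10.8%) were called. Of the 9 members tested, 5 were among them. Plvap was lower in arterial cells (log2 -4.51, SE 0.19, edgeR adjusted p = 3.11e-10). Slc2a1 (log2 1.40), Mfsd2a (0.74), Cldn5 (0.71) and Tjp1 (0.48) were higher, with adjusted p from 9.83e-07 to 0.00556, the call of Tjp1 being lost without the day 14 library (adjusted p = 0.0992). Abcg2 and Slco1a4 were not called in arterial against venous cells (adjusted p = 0.0510 and 0.0528), although both were called lower in arterial cells without the naïve library (log2 -0.48 each, adjusted p = 1.39e-04 and 7.42e-05).

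Within capillary cells, most cells with a Plvap UMI also had a UMI of Mfsd2a. A Plvap UMI was found in 55 of 119, 44 of 70 and 65 of 100 capillary cells. Of these Plvap-positive cells, 92.7%, 93.2% and 90.8% also had an Mfsd2a UMI. Among capillary cells without a Plvap UMI the Mfsd2a share was 84.4%, 88.5% and 91.4%. By level, Mfsd2a was at 1026, 787 and 863 CPM with Plvap against 1033, 1114 and 1014 CPM without. Its counting intervals were apart at day 7 only. Slco1a4 was at 1477, 2370 and 2057 CPM against 2023, 2342 and 2620 CPM. Cldn5 was at 2276, 2844 and 2085 CPM against 2512, 2695 and 2706 CPM. For Abcb1a the levels were 1156, 1540 and 1451 CPM against 1061, 1646 and 1616 CPM. Slc2a1 was lower in the cells with Plvap, at 270, 406 and 236 CPM against 409, 696 and 617 CPM, and the counting intervals did not overlap in any library. The cells with a Plvap UMI were deeper (median of 8173, 8859 and 9370 UMIs against 3003.5, 3370 and 5229). The part of depth in these shares and levels was not tested.

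A list of 47 further barrier genes (junctions, transporters, caveolar genes, and Wnt and other regulators) was read in the same fits. Between endothelium and the other classes, 30 of the 37 that could be tested were called higher in endothelium and 1 lower. Of all 12676 genes tested, 4058 (32.0%) were called higher and 2645 lower. The 4 higher genes with the largest fitted difference were Cavin2, a coat gene of caveolae, Sox17 and Foxq1, which encode transcription factors, and Lef1, a nuclear effector of Wnt signalling. Lef1 was at 558, 488 and 484 CPM in endothelium and at 4.62, 6.09 and 7.79 CPM in all other cells. Cldn19, a claudin of myelin, was lower in endothelium, at 2.89, 9.50 and 10.3 CPM against 207, 261 and 198 CPM in all other cells.

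Between capillary and pooled arterial and venous cells, 9 of 35 listed genes were called higher and 11 lower. Of all 8033 genes tested, 815 (10.1%) were called, 377 higher and 438 lower. The median log2 difference was 0.01 over the listed genes and 0.00 over all genes. Slco1c1, which encodes a thyroid hormone carrier, was lowest in capillary relative to the other cells (log2 -3.21, SE 0.28, edgeR adjusted p = 4.26e-09). It followed the arterial pattern of Slc2a1, with 144, 149 and 85.2 CPM in arterial cells and 3.91, 11.9 and 11.3 CPM in capillary cells. Venous cells held 0, 0 and 2 of its UMIs. Adgra2 and Reck, partners in the reception of Wnt7 ligands, and Foxq1 were also lower in capillary cells (log2 -2.48, -2.40 and -2.32). Adgra2 and Reck rested on 17 UMIs each in the capillary cells of all 3 libraries, and both were also present in the other cells of the ganglion, at 19.5 to 22.1 and 13.6 to 17.3 CPM. Higher in capillary than in the pooled cells were Jam3, a junctional adhesion molecule (log2 1.37), and Slc2a3, which encodes the glucose carrier GLUT3 (1.14). So were Slc16a1, which encodes the lactate carrier MCT1 (1.09), and Nkd1, a feedback inhibitor of Wnt signalling (0.97). Against arterial cells alone Jam3 and Nkd1 were called (log2 2.17 and 1.31). Against venous cells alone they were not (0.33 and 0.34, edgeR adjusted p = 0.327 and 0.393). Slc16a1 was called against each, and Slc2a3 against neither (edgeR adjusted p = 0.0545 for arterial and 0.0535 for venous cells).

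After injury, none of the 9 members with at least 20 endothelial UMIs passed 2-fold in either direction in the endothelium as a whole. The call was at least 2-fold on log2(CPM + 1), a scale that understates the change of low genes. Of all 10870 genes, 3.90% passed 2-fold at day 7 and 4.29% at day 14. The median log2 ratio of the 9 members was 0.16 at day 7 and -0.01 at day 14, beside 0.00 and 0.03 over all genes. In the capillary cells none of 8 members passed, beside 6.42% and 6.01% of 9075 genes. In the arterial and venous cells together none of 9 passed at day 7, beside 7.48% of 9314 genes, and 1 passed at day 14, beside 6.96%. With few UMIs, counting error alone takes genes past 2-fold.

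**Figure D3:**
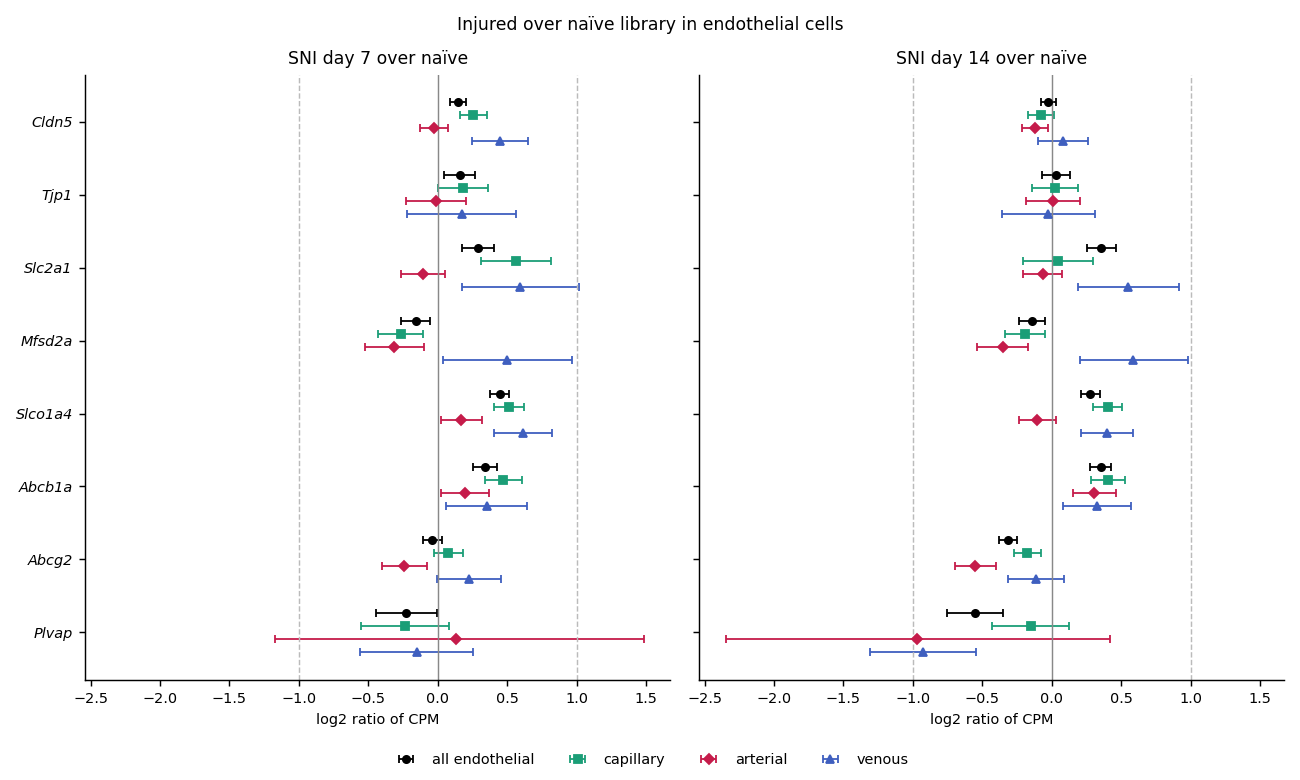
Log2 ratio of CPM of the injured over the naïve library (x) for 8 genes (y) in all endothelial, capillary, arterial and venous cells, at day 7 (left) and day 14 (right), with exact 95% counting intervals as bars and dashed lines at 2-fold. Abcb1a lies right of 0 in every class on both days, and Mfsd2a lies left of 0 in capillary and arterial cells and right of 0 in venous cells.

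The gene past 2-fold was Plvap. Its level in arterial and venous cells together was 241 CPM in the naïve library, 166 CPM at day 7 and 106 CPM at day 14, from 140, 99 and 120 UMIs. The day 14 level was 0.438 of the naïve level (95% counting interval 0.340 to 0.563). In venous cells alone it was 0.526 of the naïve level, and in capillary cells 0.901, with an interval on the log2 scale that held 0 (-0.43 to 0.13). The pooled ratio also holds the mix of the classes, since 42 of 104 pooled cells were venous in the naïve library and 47 of 128 at day 14.

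Some transporters and pumps differed by less than 2-fold but by more than counting error. Abcb1a was 1.26-fold and Slco1a4 1.36-fold above the naïve library at day 7, and 1.28-fold and 1.21-fold above it at day 14, in the endothelium as a whole. For Abcb1a the ratio was above 1 in capillary cells (1.39 and 1.32), arterial cells (1.14 and 1.24) and venous cells (1.28 and 1.25). For Slco1a4 it was above 1 in capillary cells (1.43 and 1.32) and venous cells (1.53 and 1.32). Arterial cells stood at 1.13 and 0.931, the last with an interval that held 1. Slc2a1 was 1.22-fold and 1.28-fold above the naïve library in the endothelium, yet in arterial cells it was 0.931 and 0.955 of the naïve level, with intervals that held 1. In venous cells the Slc2a1 ratio was 1.51 and 1.46, and in capillary cells 1.48 and 1.03, the last with an interval that held 1. The Slc2a1 ratio of the whole endothelium also holds the mix of the segments, whose part was not tested. Arterial cells held 375393 of 1729586 endothelial UMIs in the naïve library, 444403 of 1578473 at day 7 and 809403 of 2710606 at day 14. Abcg2 was 0.973 of the naïve level at day 7, with an interval that held 1, and 0.805 at day 14. In arterial cells its ratio was 0.846 and 0.683. Counting intervals leave out the variation between mice, which these libraries cannot give.

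Of the junction genes, Cldn5 in the whole endothelium was 1.11-fold above the naïve level at day 7 and 0.982 of it at day 14. By segment its day 7 ratio was 1.36 in venous cells, 1.20 in capillary cells and 0.980 in arterial cells, and at day 14 it was 1.06, 0.948 and 0.919. In the whole endothelium Tjp1 was 1.12-fold above its naïve level at day 7 and 1.02-fold at day 14. For Ocln the ratios were 1.30 and 0.993, with log2 intervals of -0.41 to 1.17 and -0.74 to 0.74, both of which hold 0.

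Mfsd2a was below the naïve level in capillary and arterial cells, myelinating Schwann cells and satellite glia on both days, and above it in venous cells (1.42-fold and 1.501-fold). In the endothelium it was 0.895 of the naïve level at day 7 and 0.906 at day 14. In myelinating Schwann cells it was 0.684 and 0.544, and in satellite glia 0.805 and 0.729, with log2 intervals below 0 for each. With a stricter cell filter (1000 genes or more, mitochondrial share up to 10%), however, the log2 ratio in satellite glia at day 7 was 0.43 (-1.15 to 1.76). At 2000 UMIs per cell, 14.0%, 9.42% and 7.89% of myelinating Schwann cells and 10.9%, 8.58% and 7.43% of satellite glia had an Mfsd2a UMI. Too shallow for this, and left out, were 294 of 1032, 75 of 911 and 93 of 1285 myelinating Schwann cells. Of satellite glia, 12 of 498, 0 of 350 and 7 of 427 were left out. The thinned naïve share of myelinating Schwann cells thus covers a smaller part of its class. Unthinned, the shares were 19.2%, 18.1% and 16.0% and 30.7%, 29.7% and 26.7%, at medians of 2661, 3760 and 3804 and of 6190.5, 8076 and 8111 UMIs. In neurons the thinned share was 0.778%, 1.0% and 1.15%. None of these differences could be tested over mice.

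**Figure D4:**
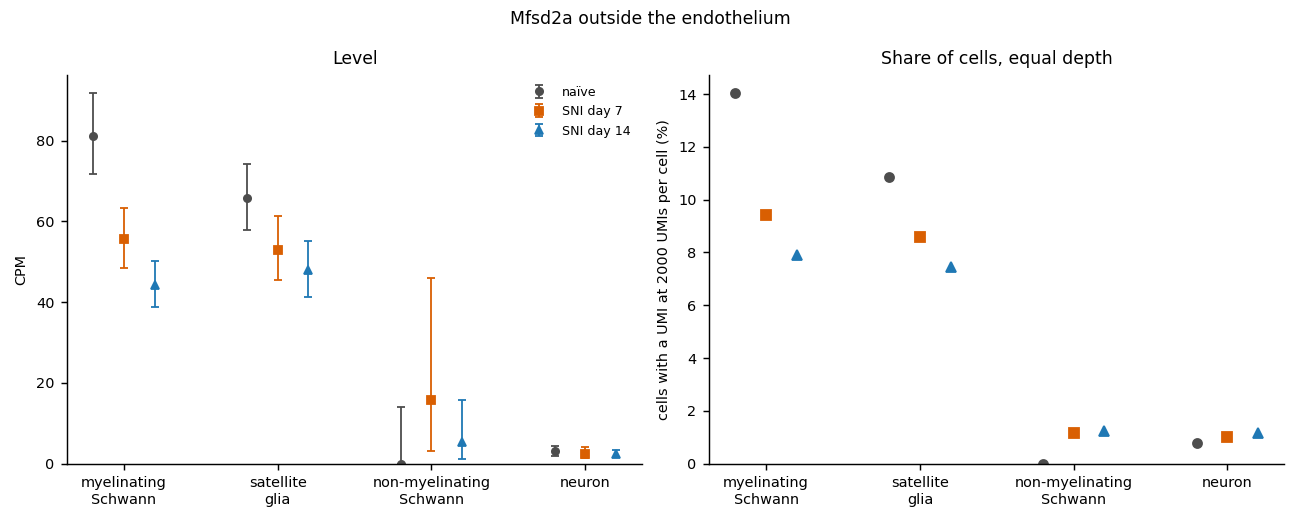
Mfsd2a level in CPM with exact 95% Poisson intervals (left) and the share of cells with an Mfsd2a UMI at 2000 UMIs per cell (right) in 4 classes, with 1 symbol per library. Both measures go down from the naïve to the day 7 to the day 14 library in myelinating Schwann cells (81.2, 55.6 and 44.2 CPM) and satellite glia (65.7, 52.9 and 47.9 CPM). Cells with fewer than 2000 UMIs are left out of the right panel.

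Of the listed barrier genes, 1 passed 2-fold upwards in the endothelium at day 7 and 3 at day 14, out of 41 with at least 20 UMIs, and none fell past it. Of all 10870 genes, 236 passed upwards at day 7 and 312 at day 14, and 3.90% and 4.29% passed in either direction. Cldn19 passed on both days from 5, 15 and 28 UMIs, a gene whose level in all other cells was at least 198 CPM. Slc6a6, which encodes the taurine carrier, was at 691, 1059 and 1517 CPM in the naïve, day 7 and day 14 libraries. In arterial cells it was at 1324, 2291 and 2786 CPM, in capillary cells at 536, 560 and 926 CPM and in venous cells at 554, 570 and 1421 CPM. Foxq1 was at 58.4, 93.8 and 142 CPM in the endothelium. Its level was 131, 196 and 326 CPM in arterial, 30.0, 40.7 and 39.5 CPM in capillary and 34.0, 139 and 107 CPM in venous cells. Both genes also differed between vessel segments, being lower in capillary than in pooled arterial and venous cells (log2 -1.35 and -2.32), in the same libraries. The part of the mix of the segments in their endothelial ratios was not tested.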

How the data were processed

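RNA of single cells from L3 and L4 ganglia was measured with 10x Genomics 3′ chemistry (v3) in 3 libraries, 1 per condition. The authors deposited raw UMI counts per gene and cell without normalization; per the labels' processing notes they used Cell Ranger 3.0.2 and mm10. The annotation release and the use of strand are not given in the sources used here. No other value column was used. Of the 31053 gene IDs, 30934 were found in GENCODE vM21, from which coordinates were taken.

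Cells needed 500 or more genes and a mitochondrial share of no more than 20%, and Scrublet (scanpy 1.11.5, expected rate 5%) was run on each library. Each cell went to the class with the highest mean standardized log marker level, computed from counts scaled to 10000 per cell and capped at 4 SD, if at least 3 markers were detected and the lead was at least 0.5. Within endothelium at least 2 markers and a lead of 0.25 were required. Counts were summed by class and library and tested with edgeR 4.0.16 (R 4.3.3; quasi-likelihood test, TMM, filterByExpr, library as a block, Benjamini-Hochberg threshold 0.05 over all genes). The SE given beside an edgeR log2 difference was derived from that difference and the F statistic of its test, and is approximate. Genes of a gate were left out of the test it defines. Classes with under 20 cells in any library were left out of the test across classes. The 3 libraries stand for replicates there although they differ in condition, and p-values measure the spread between libraries after the block. The block has its source in the design, since all classes of a library come from the same mice. The conditions had 1 library each and were compared without a test, by CPM ratios with exact conditional 95% intervals. A ratio was called past 2-fold on log2(CPM + 1) in genes with at least 20 UMIs. Shares of cells were also given after thinning to 2000 UMIs. Intervals and limits cover counting error only. The fits were tested on simulated counts. DESeq2 1.42.0 and other filters, gates, pseudocounts and left-out libraries were tried as alternatives.

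All 10 members were named, beside a list of 47 companion genes, of which at most 4 per direction were named by the largest difference. For each member the 2 genes most alike were named, among genes with at least 50 UMIs. Members and lists were chosen with earlier results of these data known.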

Additional observations from a re-analysis of the deposited data

Results flagged for a closer look

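Mfsd2a went in opposite directions after injury in different endothelial segments. At day 7 the injured over naïve log2 ratio was -0.31 in arterial cells and -0.27 in capillary cells, against 0.50 (95% counting interval 0.04 to 0.97) in venous cells. At day 14 it was -0.35 in arterial cells and -0.19 in capillary cells, against 0.59 (0.20 to 0.98) in venous cells. The venous values came from 79, 82 and 189 UMIs in 42, 27 and 47 cells of the naïve, day 7 and day 14 libraries. The difference between segments was not tested, since each condition has 1 library. Under 3 other gates and filters the venous interval stayed above 0 on both days, while with a 2 times wider margin of the gate the capillary ratio was -0.09 at day 7 and -0.04 at day 14, with intervals that held 0.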

How the results depend on the processing

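Between conditions there are no pairs, with 1 library each. For the capillary against arterial and venous comparison, 815 genes were called with the library as a replicate block and 463 without it. DESeq2 called 313 and the venous cells alone 485. Leaving out each library in turn gave 444 to 626 calls there, 815 being the count with all, and 384 to 699 calls for arterial against venous cells. Mfsd2a lost its call in DESeq2 (adjusted p = 0.176), without the block (0.201), with the stricter cell filter (0.331) and against arterial cells alone (0.669). Plvap lost it in DESeq2 (0.0642) and without the block (0.118). No other member changed its call with the block.

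Directions that turned were mostly of genes that were not called. The capillary log2 difference of Abcb1a from pooled cells was -0.034 with the stricter filter and -0.037 against arterial cells alone. It ranged from -0.011 to 0.078 with a library left out. From arterial cells it ranged from -0.10 to 0.015 with a library left out. That of Slco1a4 was -0.027 with the stricter filter and -0.11 against venous cells alone. Against venous cells alone, Cldn5 stood at 0.10, Tjp1 at 0.27 and Plvap at -0.96. The number of endothelial genes past 2-fold was 424 at day 7 and 466 at day 14, 81 and 132 with a pseudocount of 5 CPM, and 1286 and 1203 without the filter on UMIs. With the stricter filter 8 of the 10 genes, instead of 9, were highest in endothelium in each library. Depth limits Ocln and Cldn1 in endothelium.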

Other observations

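Outside the gated endothelium, 6, 4 and 10 cells of the naïve, day 7 and day 14 libraries held UMIs of 6 or more of the 10 barrier genes, out of 2831, 2444 and 3471 cells. In the day 14 fibroblasts, 31 Slco1a4 UMIs stood in 3 cells and 34 of 37 Abcb1a UMIs in the 5 cells with most of them.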
